A study of Homo sapiens with 6 samples.

Results

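Cross-link positions of eIF4B that were repeated at the same nucleotide in both cell lines numbered 6073, of 1231859 positions in the pooled tables of the series. The members were chosen by their scores. A position was taken when it had a score, the count of cDNAs that end there, of 2 or more in DoHH-2 and of 2 or more in GM01953 on the same strand. Positions inside histone genes (2530 with such scores in both lines) or on the mitochondrial chromosome (115) were left out. The 6073 shared positions were 21.9% of the 27767 positions with 2 or more counts in GM01953, and 173177 positions reached 2 counts in DoHH-2. Because the scores of both lines chose the members, these scores are given as a description and were not tested. The repeated positions of only 1 line serve for comparison, 21694 in GM01953 and 167104 in DoHH-2.

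DoHH-2 is a cell line of diffuse large B-cell lymphoma (DLBCL) with 4 replicates, and GM01953 is a control B-cell line with 2 replicates. In both lines, 40000000 cells were irradiated with 150 mJ/cm2 of UVC, RNA was cut with 0.6 U RNase I, and eIF4B was precipitated with 10 µg of antibody. The labels give no treatment or genetic change for either line, and each condition rests on 1 cell line. The replicates of a line were pooled in the deposited tables, so each position has 1 value per line and the spread between replicates is unknown. DoHH-2 had 2033156 cDNA counts at 1179243 positions and GM01953 had 167197 at 78474, a ratio of 12.2 in depth. All intervals are 95% intervals, of Wilson for a share and of Newcombe for a difference, and cover counting error only, not PCR duplicates that were left or differences between replicates.

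Among 9 B-cell markers in the exon counts, each was above 0 in GM01953 and 8 were in DoHH-2, where CD22 was at 0. Their summed counts were 802 in GM01953 and 2363 in DoHH-2. These sums are raw, and DoHH-2 was 12.2 times deeper, so they do not compare the lines. CD74 and HLA-DRA had 333 and 204 of these counts in GM01953 and 946 and 725 in DoHH-2. MS4A1 had 143 in GM01953 and 12 in DoHH-2. The 4 T-cell, 4 myeloid and 4 epithelial or fibroblast markers were at 0 in both lines. A count of 0 allows up to 3 counts, which is 17.9 CPM (counts scaled to the total of the table) in GM01953 and 1.48 CPM in DoHH-2.

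eIF4B is a cofactor of the helicase eIF4A, which unwinds RNA structure when ribosomes are loaded on the mRNA. In iCLIP, UV light joins a protein to the RNA it touches, and reverse transcription stops at the joined nucleotide, so the end of the cDNA marks the position. UV light joins proteins to uridine most readily. Transfer RNAs carry the anticodon, the 3 bases that read the codon, in a loop of 7 bases. The U5 small nuclear RNA acts in the spliceosome, and 7SK RNA holds the elongation factor P-TEFb inactive.

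The sequences below show the shared positions with the highest normalised score, the smaller of the CPM values in the 2 lines, for 12 genes from the top of that order. Each has 10 nt to each side, 5′ to 3′ on the transcribed strand of GRCh38 and in DNA letters, and the capital marks the cross-link position. Of the 12 genes, 10 were tRNA genes. In 6 of these the position lay within the anticodon and in 4 on the base just after it. The 31 nt that follow the position were found 2 times in the genome for TRK-CTT1-1, TRE-TTC2-1 and TRG-CCC2-2. They were found 7 times for TRF-GAA1-4, 10 times for TRN-GTT2-7 and 16 times for TRV-CAC1-4. The gene copy is uncertain for these tRNA genes.
TRK-CTT1-1, chr14:58239923-58239943, minus strand: catgggactcTtaatcccagg
TRE-TTC2-1, chr13:44917955-44917975, minus strand: attcctggttTtcacccaggc
TRN-GTT2-7, chr1:145287790-145287810, plus strand: gcgttcggctGttaaccgaaa
TRG-CCC2-2, chr16:636764-636784, minus strand: atgcaagattCccattcttgc
TRA-AGC1-1, chr6:28795990-28796010, minus strand: cgtgcttagcAtgcacgaggt
TRV-CAC1-4, chr5:181173673-181173693, plus strand: acgttcgcctCacacgcgaaa
TRS-GCT3-1, chr11:66348144-66348164, plus strand: cgatggactgCtaatccattg
TRF-GAA1-4, chr12:124927869-124927889, minus strand: ttagactgaaGatctaaaggt
TRA-TGC1-1, chr6:28789796-28789816, minus strand: catgctttgcAtgtatgaggt
TRC-GCA4-1, chr17:38869318-38869338, minus strand: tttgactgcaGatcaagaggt
RPS24, chr10:78040632-78040652, plus strand: ctgcaatgatGttagctgtgg
ENO1, chr1:8861069-8861089, minus strand: tgagcctcgtGtcatctccgg

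The next 7 mRNAs in the same order whose position lay in sequence found once in the genome are shown to compare positions in messages. This choice was made with the values in view. The position is followed by T or A in each of them, as it is in RPS24 and ENO1. These were also the most common next bases over all shared positions in coding exons of such sequence. There T followed at 49.3% and A at 33.5%. The shares were 41.8% and 33.9% at positions repeated in GM01953 only, and 48.9% and 28.5% in DoHH-2 only.
TUBB, chr6:30720361-30720381, plus strand, 5′ UTR: ccttcctgccGtcgcgtttgc
FAU, chr11:65120724-65120744, minus strand, CDS: ccggcgctttGtcaacgttgt
IGKC, chr2:88857236-88857256, minus strand, 3′ UTR: cagctcatctTtcacctcacc
RPL5, chr1:92841867-92841887, plus strand, 3′ UTR: cccagcaattTtctatgattt
ACTB, chr7:5527298-5527318, minus strand, 3′ UTR: tttgttttatTttgaatgatg
PPIA, chr7:44799764-44799784, plus strand, CDS: agatgagaacTtcatcctaaa
RPLP2, chr11:811589-811609, plus strand, CDS: tgcttcaggtTatcagtgagc

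Most shared positions had low scores. The median score was 3 in GM01953 (range 2 to 320) and 5 in DoHH-2 (range 2 to 3082). At the threshold itself stood 787 positions with exactly 2 counts in each line, and just outside it were 4724 positions with 1 count in DoHH-2 and 2 or more in GM01953, and 5341 with 1 count in GM01953 and 2 or more in DoHH-2. Scores of 5 or more in both lines were found at 1052 positions and scores of 10 or more at 296. Spearman's rho between the scores of the 2 lines was 0.26 over the 6073 positions, which share their libraries. The shared positions held 29714 of the 142099 counts kept in GM01953 (20.9%, interval 20.7–21.1) and 65566 of 1610264 in DoHH-2 (4.07%, 4.04–4.10).

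The share of GM01953 positions that were met in DoHH-2 went up with the score in GM01953. It was 17.2% (16.6–17.8) of 14715 positions with 2 counts, 30.4% (29.0–31.9) of 3702 positions with 5 to 9 counts, and 47.8% (43.99–51.7) of 644 positions with 10 to 19 counts. Of the 165 positions with 20 counts or more, 146 were shared (88.5%, 82.7–92.5), and 16 had 0 counts in DoHH-2.

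A false discovery rate (FDR) from permuted counts within each gene was deposited with each position. It was below 0.05 at 4752 of the shared positions in DoHH-2, where 21.2% of all positions outside histone genes passed, and at 4409 in GM01953, where 36.4% passed. Both were below 0.05 at 4043 positions and neither at 955. The FDR is built on the same counts as the rule, so this is a description.

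The same nucleotide was repeated in both lines more often than its neighbours were. For each repeated GM01953 position, DoHH-2 had a repeated position at the identical nucleotide in 21.9% (21.4–22.4). At 1 nt upstream the share was 12.4% (12.01–12.8) and at 1 nt downstream 12.5% (12.2–12.9). It was 7.502% at 10 nt upstream, 6.59% at 10 nt downstream, and 3.71% and 3.35% at 50 nt. In coding exons of unique sequence the corresponding shares were 22.9% (22.3–23.5) at the identical nucleotide, 12.9% and 13.1% at 1 nt, and 4.32% and 4.05% at 50 nt. Allowing 1 nt to either side raised the matched positions from 6073 to 7503, and allowing 10 nt raised them to 10608 (38.2%). Of the shared positions, 4886 had no shared neighbour, and the remaining 1187 lay in runs of 2 to 9 nucleotides.

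Exons of coding genes held 4567 of the 6073 shared positions (75.2%, interval 74.1–76.3). The CDS held 2321 (38.2%, 37.0–39.4), the 3′ UTR 1195 (19.7%, 18.7–20.7) and the 5′ UTR 1051 (17.3%, 16.4–18.3). A further 518 positions lay outside annotated genes, 358 in non-coding RNAs, 336 in introns and 294 in tRNA genes.

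Against the positions repeated in GM01953 only, the shared positions were less often intronic, 5.53% against 20.9%, a difference of −15.4 percentage points (−16.2 to −14.6). They were more often in the 5′ UTR, 17.3% against 13.9% (difference 3.39, 2.35 to 4.46), and in tRNA genes, 4.84% against 0.779% (4.06, 3.53 to 4.64). The tRNA share of 4.84% became 1.34% with an FDR below 0.05 in both lines and 17.03% with a DoHH-2 score scaled to depth, and the intron share of 5.53% became 12.3% when each gene was counted once. The 3′ UTR share was higher by 2.58 points (1.48 to 3.72), and the CDS share did not differ beyond its interval (difference 1.05, −0.328 to 2.43). Against the positions repeated in DoHH-2 only, the shared positions were less often in the 3′ UTR, 19.7% against 28.1% (−8.40, −9.40 to −7.35), and in the CDS (−3.32, −4.55 to −2.06). They were more often in the 5′ UTR by 4.49 points (3.54 to 5.47).

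Seen from the other side, classes differed in how many repeated GM01953 positions had a match. In tRNA genes 294 of 463 positions were shared (63.5%, 59.0–67.8), and in non-coding RNAs 358 of 1062 (33.7%, 30.9–36.6). The 5′ UTR (25.8%, 24.5–27.2), the 3′ UTR (24.4%, 23.2–25.6) and the CDS (22.3%, 21.6–23.2) were nearer to each other. Introns had 336 of 4880 (6.89%, 6.21–7.63). The share also moved with how many counts a gene had in DoHH-2. In coding exons it was 2.40% in genes with under 50 counts there, 21.1% in genes with 200 or more and under 500, and 67.2% in the 116 genes with 1000 or more. Its part in the differences between classes was not tested.

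The shared positions lay in 1949 genes, of which 1671 were protein-coding, which is 23.7% of the 8211 genes with a repeated GM01953 position. A single shared position was found in 1196 genes, 2 to 4 in 517 and 5 or more in 236. The 20 genes with the most held 971 positions (16.0%). In these genes most repeated GM01953 positions were met in DoHH-2, from 57.1% in HLA-DRA to all 27 in RN7SK.

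ACTB and PFN1, genes of the actin cytoskeleton, had the most shared positions of any single gene. ACTB (ENSG00000075624, chromosome 7 from 5526409 to 5563902, minus strand), which encodes beta-actin, had 152 shared positions, of 173 repeated in GM01953. They comprised 106 in the CDS, 32 in the 3′ UTR and 14 in the 5′ UTR. They held 889 of its 1076 counts in GM01953 (82.6%) and 2339 of its 6483 in DoHH-2 (36.1%). Its highest GM01953 score was 67, at position 5527307 in the 3′ UTR, where DoHH-2 had 68 counts. The nucleotide before it on the mRNA, 5527308, had 30 counts in GM01953 and 87 in DoHH-2. Of the 152 positions, 126 were in sequence found once in the genome, and the remaining ones could also come from copies of the gene.

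PFN1, which encodes profilin, the actin monomer carrier, had 101 shared positions of 117, with 71 in the CDS and 30 in the 3′ UTR. They held 447 counts in GM01953 and 882 in DoHH-2. CFL1, which encodes the actin-severing cofilin, had 48, and 24 of these were in the 3′ UTR, with 246 and 468 counts. ACTG1, gamma-actin, had 32 positions with 142 and 213 counts. Each of the 10 genes of the actin list had a shared position, together 399 of 533 repeated GM01953 positions (74.9%, against 21.9% over all positions). ACTB, PFN1, ACTG1 and CFL1 had 6483, 2009, 2008 and 1898 counts in DoHH-2. In coding exons of the 116 genes with 1000 or more counts there, 67.2% of repeated GM01953 positions were shared. For this list and those below, the part of DoHH-2 counts in the share was not tested. The lists were chosen with these data known and are described by counts only.

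Several genes had their shared positions mostly in the 5′ UTR. TUBB, a beta-tubulin (chromosome 6 from 30717435 to 30725538, plus strand), had 40 of its 52 positions there. Position 30720371, printed above and 136 nt upstream of the start codon, had 13 counts in GM01953 and 145 in DoHH-2. Position 30720468 had 17 and 22. TUBA1B, an alpha-tubulin, had 20 of 25 in the 5′ UTR. PGK1, a glycolytic kinase, had 24 of 37, the highest at position 78104301 of chromosome X with 23 counts in GM01953 and 48 in DoHH-2, 40 nt upstream of the start codon. EIF4G2, a relative of the initiation factor eIF4G, had 17 of 23, with 129 counts in GM01953 and 149 in DoHH-2. Of the 98 genes with 10 or more shared positions, over 50% were in the 5′ UTR in 12, which also included TMSB4X, ATF5, HNRNPC, PCNA, JPT1, DDX5, HNRNPA0 and RPS20. Over 50% were in the CDS in 44 genes and in the 3′ UTR in 17.

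MIF, a cytokine, is a short gene (chromosome 22 from 23894383 to 23895227, plus strand) and had 76 shared positions of 82. These were 31 in the 5′ UTR, 30 in the CDS and 15 in the 3′ UTR, with 401 counts in GM01953 and 1252 in DoHH-2. Its highest GM01953 score was at position 23894484, 9 nt after the first base of the start codon, with 22 counts there and 33 in DoHH-2. Positions 23894453, 23894455 and 23894461, up to 22 nt upstream of the start codon, had 17, 12 and 12 counts in GM01953 and 18, 29 and 28 in DoHH-2.

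Glycolytic enzymes had shared positions in 9 of the 10 genes listed, 204 of 277 repeated GM01953 positions (73.6%, against 21.9% over all positions and 23.7% over all genes). ENO1, enolase, had 61, of which 34 were in the CDS and 20 in the 5′ UTR. Its counts at these were 287 in GM01953 and 1174 in DoHH-2. The position printed above, 8861079, had 14 counts in GM01953 and 198 in DoHH-2. The order of its positions was not the same in the lines, as position 8865364 in the CDS had 17 counts in GM01953 and 8 in DoHH-2. ALDOA, aldolase, had 37 positions with 110 counts in GM01953 and 208 in DoHH-2. GAPDH had 31, with 117 and 274 counts.

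Ribosomal proteins had a shared position in 70 of the 80 genes with a repeated GM01953 position (87.5%, against 23.7% over all genes), in 587 positions. The CDS held 409 of them (69.7%), the 5′ UTR 89 (15.2%) and the 3′ UTR 83 (14.1%). In the list, 84.8% of positions were in sequence found once, against 84.2% over all shared positions. RPL5 had 39 positions with 139 counts in GM01953 and 887 in DoHH-2. RPS24 had 34 of 35 repeated GM01953 positions shared, 19 of them in the 3′ UTR, with 165 and 776 counts. Its highest DoHH-2 score was 175 at position 78040642, printed above, where GM01953 had 16 counts. FAU had 16 positions, among them position 65120734 with 22 counts in GM01953 and 126 in DoHH-2.

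Among factors of translation, each of the 10 genes on a list of elongation factors, PABPC1 and other abundant mRNAs had a shared position (against 23.7% over all genes), with 93 of 160 repeated GM01953 positions (58.1%, against 21.9% over all positions). EEF2, which moves the ribosome along the mRNA, had 35 positions, 26 of them in the CDS, with 107 counts in GM01953 and 418 in DoHH-2. PABPC1, the poly(A)-binding protein, had 10, and NPM1, a nucleolar chaperone, had 17. Of genes named EIF, 23 of the 46 with a repeated GM01953 position had a shared one (against 23.7% over all genes), with 76 of 217 positions (35.02%, against 21.9%). EIF5A had 13 and EIF4G1 had 6.

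The heat shock list had 125 shared positions of 184 repeated in GM01953 (67.9%, against 21.9% over all positions) in 7 of 8 genes. HSP90AB1 and HSP90AA1, which encode the chaperone HSP90, had 39 and 34, mostly in the CDS (22 and 27). The shared positions of HSP90AA1 held 52.8% of the GM01953 counts of the gene and 7.01% of its DoHH-2 counts. HSPA8 had 25 positions, with 66.03% and 7.25% of its counts. Over all genes and positions kept, the shares were 20.9% in GM01953 and 4.07% in the deeper DoHH-2. The hnRNP list had 109 positions of 244 (44.7%, against 21.9%) in 16 of 21 genes, and 45 of them (41.3%) were in the 5′ UTR. HNRNPA2B1, a nuclear RNA-binding protein, had 28, with 96 counts in GM01953 and 275 in DoHH-2. SR splicing factors had a shared position in 8 of 10 genes, with 16 positions of 67 repeated in GM01953 (23.9%), near the 21.9% over all positions. The high mobility group had 39 positions of 70 (55.7%, against 21.9%) in 5 of 5 genes. Of these positions, 22 were in HMGB2, 18 of them in its 3′ UTR. Beside the gene counts of these lists, 23.7% of all genes with a repeated GM01953 position had a shared one.

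Genes of B cells and antigen presentation had a shared position in 11 of 20 genes, with 168 positions of 408 (41.2%, against 21.9% over all positions and 23.7% over all genes). CD74, the invariant chain of MHC class II, had 46 of 75, with 201 counts in GM01953 and 330 in DoHH-2. Its position 150412724 in the CDS had 14 counts in GM01953 and 59 in DoHH-2, while position 150402195 in the 3′ UTR had 14 and 2. IGKC, the immunoglobulin kappa constant region, had 34, with 23 in the 3′ UTR and 141 and 642 counts. HLA-DRA, of MHC class II, had 28, with 97 and 142 counts. JCHAIN had 21 and IGHM 10. MS4A1, CD79A, CD79B, PAX5 and CD22 had exon counts in GM01953 but no shared position. Of all genes with a repeated GM01953 position, 23.7% had a shared one. CD22 had 0 exon counts in DoHH-2, so none of its exon positions could be shared. MS4A1 had 143 exon counts in GM01953 and 12 in DoHH-2, and CD79B had 1 repeated GM01953 position.

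On a list of genes that the study names or probed with antibodies, MYC had 13 shared positions, 9 in the 3′ UTR and 4 in the CDS, with 39 counts in GM01953 and 69 in DoHH-2. BCL2, an inhibitor of apoptosis, had 8, of which 6 were in the 5′ UTR, with 21 and 37 counts. CDK4 had 1 shared position of 9 repeated in GM01953, in the CDS, with 3 and 2 counts. DAXX, ERCC5, EIF4B and UPF1 had only 2, 1, 5 and 3 repeated GM01953 positions, and none was shared. Over the list, 3 of 7 genes had a shared position, against 23.7% of all genes with a repeated GM01953 position. It held 22 shared positions of 66 (33.3%, against 21.9% over all positions).

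Along the mRNA, 4476 shared positions could be placed on 1 coding transcript per gene. Within 50 nt of the start codon lay 863 (19.3%, 18.2–20.5), against 11.1% of the positions repeated in GM01953 only (difference 8.17 points, 6.93 to 9.46) and 11.3% of those in DoHH-2 only (8.01, 6.87 to 9.20). Within 50 nt of the stop codon lay 430 (9.61%, 8.78–10.5), against 4.41% and 6.08%. The first 30 nt of the mRNA held 299 (6.68%, 5.99–7.45), against 2.88% and 4.44%, and its last 200 nt held 555 (12.4%), against 4.82% and 8.94%.

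These differences were between sets of different genes. Within the 103 genes that had 5 or more positions of both kinds in GM01953, the start codon share of the shared positions was higher in 43 genes, lower in 29 and equal in 31, with a median difference of 0 points. The stop codon share was higher in 28, lower in 32 and equal in 43, with a median difference of 0 points. The 5′ UTR share was higher in 59 of 107 such genes and lower in 37 (median difference 5 points), and the CDS share was lower in 73 and higher in 30 (median −11.1).

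Few positions lay just before a splice junction. In exons other than the last, 80 of 2886 shared positions were within 40 nt of the 3′ exon end (2.77%, 2.23–3.44), against 6.23% of those in GM01953 only and 2.97% of those in DoHH-2 only. How reads across junctions were counted is not given in the sources used here.

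Uridine was the base at 43.8% (42.6–45.1) of shared positions, guanosine at 24.2%, cytidine at 20.9% and adenosine at 11.2%. In coding exons of unique sequence, 4301 positions, uridine stood at 47.2% (45.7–48.7) and adenosine at 5.44% (4.802–6.16). Among positions repeated in GM01953 only, in the same kind of sequence, uridine was at 38.4%, a difference of 8.75 points (7.06 to 10.4), and adenosine at 9.48% (−4.04, −4.84 to −3.18). Against DoHH-2 only, uridine did not differ beyond its interval (−0.350, −1.86 to 1.17), while adenosine was lower (−3.86, −4.52 to −3.13). Over all positions the adenosine share was not lower. It was 0.286 points (−0.590 to 1.20) from GM01953 only and 1.08 points (0.295 to 1.91) above DoHH-2 only. Uridine over all positions was 3.48 points (2.07 to 4.89) above GM01953 only and differed by −3.44 (−4.70 to −2.16) from DoHH-2 only.

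The bases next to the position are given for the same coding exons of unique sequence. The base before it was uridine at 44.5% and the base after it at 49.3%. These shares were 9.03 points (7.35 to 10.7) and 7.52 points (5.82 to 9.21) above GM01953 only. Against DoHH-2 only, neither differed beyond its interval (1.38, −0.121 to 2.90, and 0.427, −1.09 to 1.95). Guanosine followed the position at 4.65% (4.06–5.32), against 7.06% in GM01953 only and 8.01% in DoHH-2 only. At 2 nt after the position cytidine stood at 41.3% (39.9–42.8), which was 4.49 points (2.82 to 6.16) above GM01953 only and 10.95 points (9.47 to 12.5) above DoHH-2 only. Of the 4-letter words from 1 nt before to 2 nt after the position, TTTT was the most frequent (220 positions, 5.12%), followed by TTTC (4.51%), TTAT (3.28%), TTAC (3.12%) and CTTC (2.86%). TTTC stood at 2.61% in GM01953 only and at 3.57% in DoHH-2 only, and TTTT at 2.69% and 6.03%. Over all shared positions, uridine before and after the position stood at 41.7% and 46.4%. These shares were 4.98 and 2.48 points above GM01953 only. From DoHH-2 only they differed by −1.38 (−2.64 to −0.111) and −2.62 points (−3.90 to −1.35).

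The difference in uridine between shared and GM01953-only positions was also seen within genes. In 102 genes with 5 or more positions of each kind, the uridine share was higher at the shared positions in 75 and lower in 23, with a median difference of 15.04 points. Adenosine was lower in 57 and higher in 19. In unique sequence, uridine stood at 65.2% (62.4–68.0) of 1113 shared positions in the 3′ UTR, at 44.7% (42.6–46.8) of 2164 in the CDS and at 32.7% (29.9–35.6) of 1024 in the 5′ UTR, where guanosine was at 36.5% (33.6–39.5). In the same unique coding exon sequence, adenosine stood at 2.96% (1.83–4.75) of 541 positions with 5 or more counts in both lines and at 6.03% (5.17–7.02) of 2539 positions where the smaller score was 2. Over all shared positions it went the other way, from 11.2% to 12.7% with a score of 3 or more in both lines. Within the CDS, 43.1% (41.0–45.2) of shared positions fell on the first base of a codon, against 39.6% in GM01953 only and 37.6% in DoHH-2 only.

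The 294 shared positions in tRNA genes were 4.84% of the set but held 4855 of its counts in GM01953 (16.3%) and 10718 in DoHH-2 (16.3%). They lay in 119 tRNA genes of 20 amino acid types by name, including selenocysteine. Within the 7 nt that have the anticodon at their centre lay 206 (70.1%, 64.6–75.02), with 85.2% of the counts in GM01953 and 83.5% in DoHH-2. Positions repeated in GM01953 only lay there in 49.1%, a difference of 20.96 points (11.7 to 29.9), and those in DoHH-2 only in 38.4% (31.7, 23.8 to 39.0).

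Inside the loop, the base just after the anticodon had the most shared positions, 52, with 1492 counts in GM01953 and 2117 in DoHH-2. The first anticodon base had 40, with 1023 and 2886 counts. At the end of the loop, 4 nt after the first anticodon base, 16 positions held 85 and 120 counts. A smaller group of 9 positions stood 8 nt before the anticodon. The FDR was below 0.05 in both lines at 54 of the 294 positions in tRNA genes, against 4043 of all 6073. The counts do not show why a cDNA ended at a base. Whether each end in a tRNA marks a cross-link was not tested.

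The tRNA genes differed in their ratio between the lines. TRN-GTT2-7, for asparagine, had 377 counts in GM01953 and 1045 in DoHH-2 at 5 positions, and TRK-CTT1-1, for lysine, had 352 and 1459 at 7. At TRK-CTT1-1 position 58239933, printed above, GM01953 had 135 counts and DoHH-2 543, and at the nucleotide before it on the tRNA they had 106 and 543. TRC-GCA2-2, for cysteine, had 171 and 83 counts, so that GM01953 was higher even in raw counts. TRK-TTT6-1 had 93 and 3 at 1 position. Of the 294 positions, 137 were followed by 31 nt found in more than 1 place of the genome, so the gene copy is uncertain there. These include every shared position of TRN-GTT2-7, TRK-CTT1-1 and TRC-GCA2-2, while the 1 position of TRK-TTT6-1 was in sequence found once. Among the 157 in sequence found once, 98 (62.4%, 54.6–69.6) lay in the anticodon loop.

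In other non-coding RNAs, small nuclear RNAs led with 228 of 358 positions. The 8 U5 genes had 90 positions with 519 counts in GM01953 and 1872 in DoHH-2. The highest positions of 3 of them are shown because they lie on or next to the same stretch of U, a choice made with the values in view. Those of RNU5E-1 and RNU5E-6P fell on the stretch, and that of RNU5B-1 on the A just before it. The highest position of RNU5D-1, with 6 counts in GM01953 and 68 in DoHH-2, did not lie on or next to this stretch.
RNU5E-1, chr1:11908232-11908252, plus strand: gaaaccaattTtttgaggcct
RNU5E-6P, chr1:44819900-44819920, minus strand: tttattcaatTttttgaggcc
RNU5B-1, chr15:65304754-65304774, plus strand: tcttaagctaAttttttgagg

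The word TTTTTTGAG was searched on the transcribed strand around each shared position. The position fell on one of its first 6 letters at 16 of the 90 U5 positions (17.8%, 11.2–26.9), which held 30.8% of the U5 counts in GM01953 and 27.7% in DoHH-2. These 16 positions lay in 4 of the 8 U5 genes. The word was taken from these U5 sequences, so the share is a description. RNU5E-1 position 11908242 had 10 counts in GM01953 and 101 in DoHH-2, and RNU5B-1 position 65304764 had 32 and 51.

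RN7SK, the 7SK RNA (chromosome 6 from 52995621 to 52995948), had 27 positions, and these held 152 of its 160 counts in GM01953 (95%) and 870 of 1143 in DoHH-2 (76.1%). Its position 52995894 had 12 counts in GM01953 and 101 in DoHH-2. RNU7-1, the U7 RNA of histone mRNA processing, had 18 positions with 196 and 471 counts. U1 variants had 34 positions, Y RNAs 22, U4 18, U11 and U12 17, and U2 16. The 17 positions in small nucleolar RNAs had 61 counts in GM01953 and 90 in DoHH-2. MALAT1 had 8 positions with 32 and 23 counts, and NEAT1 and the 7SL genes had none. Sequence found once held 82 of the 90 U5 positions, 31 of the 34 in U1 variants and 5 of the 22 in Y RNAs, and elsewhere the gene copy is uncertain.

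Of the shared positions, 5111 (84.2%, 83.2–85.1) were followed by 31 nt found once in the genome, against 94.95% (94.7–95.2) in GM01953 only and 92.7% (92.5–92.8) in DoHH-2 only. A further 438 positions were followed by 31 nt found 10 times or more. A run of 15 or more A within the next 31 nt was present at 429 shared positions (7.06%, 6.45–7.74), 2.44% in GM01953 only and 1.62% in DoHH-2 only. These positions held 4489 counts in GM01953 and 4145 in DoHH-2, 313 of them lay outside annotated genes and 105 in introns. The 4 shared positions of GTF2F1, which stood among the 10 genes with the highest GM01953 counts (231 counts, 68 in DoHH-2), were intronic and none was in sequence found once.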

How the data were processed

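iCLIP for eIF4B was carried out in DoHH-2 (4 replicates) and GM01953 (2 replicates). Per the methods, the authors took out PCR duplicates (BBMap), demultiplexed (Je), merged replicates of low read number and aligned to GRCh38 (HISAT2). Each deposited table pools the replicates of a line and lists cDNAs per position from iCount. The deposited scores are whole, unnormalized counts. The FDR, a q-value deposited by the authors, comes from iCount. Versions, the annotation release and the treatment of reads with several matches are not given in the sources used here.

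Positions listed once per gene were counted once. They were read as counted from 0, since base profiles of the 2 strands mirrored each other only then. Classes came from all transcripts of GENCODE release 44 with precedence CDS, 5′ UTR, 3′ UTR, non-coding exon, intron. Small RNA genes and tRNA genes went before all of these, an order chosen after seeing the data. The 443 tRNA genes came from RefSeq on GRCh38.p14, and for 391 of them the strand was found from T-loop letters. Distances to codons used 1 transcript per gene (MANE, canonical or longest). Words of 31 nt were searched on both strands of 3099750718 bases. CPM used the total of each table. Base shares, Wilson and Newcombe 95% intervals were computed in Python 3.11.15 with pandas, and Wilson bounds and the search for shared positions were tested on simulated data.

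The genes named are the 20 with the most shared positions, the 10 with the highest GM01953 counts and members of 13 lists, and the positions are the 20 with the highest normalised score. The members, lists and rules were chosen with earlier results of these data known. Depth was 2033156 (DoHH-2) and 167197 counts (GM01953). Sequences were printed for positions outside chromosome 8. Positions in histone genes and on the mitochondrial chromosome were left out. With pooled replicates there was no test between the lines. The values of 1 B-cell gene are not reported here on their own.
Alternatives were other score thresholds, a DoHH-2 score scaled to depth, an FDR filter, sequence found once, no A runs, histone genes kept, a match within 1 nt, weighting by counts, other windows and word lengths, and 1 transcript per gene.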

Additional observations from a re-analysis of the deposited data

How the results depend on the processing

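No paired analysis was possible because the deposited columns pool the replicates, and for the same reason no replicate could be left out. The 6073 shared positions fell to 2750 with a score of 3 or more in both tables, to 1052 with 5 or more, to 505 when the DoHH-2 score had to be as large a share of its total (25 counts or more), and to 4043 with an FDR below 0.05 in both. As a share of repeated GM01953 positions, 21.9% became 21.1% with a score of 3, 1.82% with the scaled score, 19.3% with the FDR, 19.9% in sequence found once, 28.3% with histone genes and the mitochondrial chromosome kept and 27.02% within 1 nt. The match at the identical nucleotide is the same quantity, so its 21.1%, 19.3% and 19.9% are not a second result. The 1949 genes became 936 with a score of 3 and 159 with the scaled score.

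The CDS share of 38.2% became 33.9% with a score of 3, 19.6% with the scaled score, 42.8% with the FDR, 42.3% in sequence found once, 41.1% without A runs, 26.9% weighted by GM01953 counts and 36.5% with 1 transcript per gene. The 5′ UTR share of 17.3% became 21.4% with the FDR, 20.04% in sequence found once, 18.6% without A runs and 12.9% when weighted. The 3′ UTR share of 19.7% became 17.9%, 14.5%, 23.1%, 21.8%, 21.1% and 15.8% for a score of 3, the scaled score, the FDR, sequence found once, no A runs and weighting. Uridine at 43.8% became 49.5% with the scaled score, 47.8% with the FDR, 46.7% in sequence found once, 46.3% without A runs and 39.1% when weighted. Adenosine at 11.2% became 12.7%, 12.1%, 7.35%, 6.81%, 7.10% and 18.4% for a score of 3, the scaled score, the FDR, sequence found once, no A runs and weighting, and 30.002% if positions were read as counted from 1. The start codon share of 19.3% became 21.04% with a score of 3 and 9.61% with 25 nt to each side. The share in repeated sequence, 15.8%, became 29.5% with words of 21 nt and 19.6% with a score of 3. Leaving out A runs and placing coding exons before small RNAs were chosen after seeing the data. DoHH-2 was 12.2 times deeper, so 2 counts are a smaller share of its total.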

Other observations

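The highest scores outside annotated genes stood at few positions. Position 171600951 on the minus strand of chromosome 1, in sequence found once, had 320 counts in GM01953, the highest score of any shared position in that line, and 250 in DoHH-2. The 16 shared positions on scaffolds that are not placed on a chromosome held 163 counts in GM01953 and 4785 in DoHH-2, including the highest DoHH-2 score of 3082, where GM01953 had 36. Of the 518 shared positions outside genes, 313 were followed by a run of A and 139 were in sequence found once without such a run.

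The longest runs of neighbouring shared positions had 9 nucleotides. One lay on the minus strand of chromosome 5 from 158021496 to 158021504, outside annotated genes, and the other on chromosome 8.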
